A study of Panagrellus redivivus with 189 samples.

Results

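The late and early gastrula of the free-living nematode Panagrellus redivivus are described here from 73 libraries, 38.6% of all those in a study that sequenced single embryonic cells from the zygote to gastrulation. The cells were chosen by their stage labels. Each stage rests on 1 embryo, and each library is labelled as a separated blastomere, a cell of the early embryo, taken once the eggshell had been removed and amplified by CEL-Seq2, a barcoded method that reads the 3' end of each transcript. The late gastrula gave 40 libraries. Of these, 19 have titles without a digit before the letter r and form the late group. The other 21 have a digit 2, 3, 4 or 6 there, whose meaning the labels do not give, and are shown apart as the digit libraries. The early gastrula gave 33 libraries. No strain, genotype or treatment is named for either stage. Embryo age is given only as the stage, apart from a title prefix that differs between the stages. This prefix stands where the titles of earlier embryos hold the number of cells, but the labels do not say what it means. The share of each embryo's cells that was sampled is thus not known. Which cells were sampled may differ between the stages, and its part in their comparison was not tested.

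Gastrulation in nematodes is the stage at which cells on the surface move inside, usually beginning with the precursors of the gut, followed by cells of the germline, mesoderm and pharynx. Before and during it, transcripts laid down by the mother are lost and transcripts made by the embryo's own genome take their place, in patterns that differ more and more between lineages. In the related nematode Caenorhabditis elegans this is the period in which the founder lineages start to express the regulators of gut, muscle, skin and nerve. The deposited count table carries no gene names in the form used here, so each feature is called F and its row number, no function is given for any of them, and no library could be assigned to a tissue.

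Because a stage has 1 embryo, blastomeres are not replicates of the stage and no test was made. Levels are sums over the libraries of a group, written as CPM, the usual scaling of counts to a common total, here over the 1566 rows used. Intervals are exact 95% intervals that cover counting error only, not the difference between embryos. A feature was said to be past the fold when the CPM of the sums differed at least 4-fold, with at least 100 CPM in the higher group and a count in at least 5 of its libraries.

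The late libraries held 1532 to 40702 counts in these rows with a median of 5143, the digit libraries 2090 to 23004 with a median of 12493, and the early libraries 1190 to 15510 with a median of 3727. Late library 1 alone held 31.1% of the late counts, so the main fold counts and some of the levels are given with and without it. Among the digit libraries, the 11 with the digit 4 had a median of 16959 counts, against 10369 for the 7 with the digit 2. The 6 rows left out of the analysis took 2.22% to 8.41% of a late library, 2.84% to 5.59% of a digit library and 3.26% to 25.5% of an early library. Thinned to 2000 counts each, a late library showed a median of 356 features (338 to 407), a digit library 355 (327 to 389) and an early library 325 (294 to 355). The late and early ranges overlap between 338 and 355 features, and the late median lies just above the highest early library. In 7 earlier embryos with at least 5 libraries of this depth, the medians ran from 327 to 379 features. The late median lay inside that range and the early median just below it. Depth no longer enters the count of detected features directly, but 2 late and 4 early libraries were too shallow for it.

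**Figure D1:**
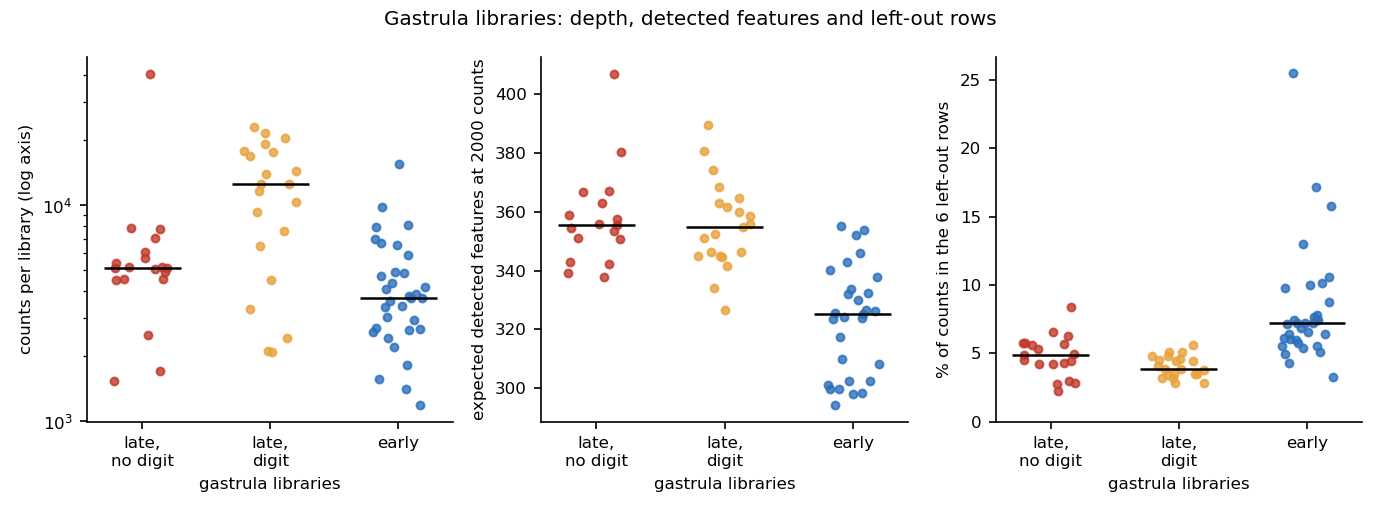
Counts per library on a log axis, features detected after thinning to 2000 counts, and the percentage of counts in the 6 left-out rows, for late libraries without and with a title digit and for early libraries. Each point is 1 library and the bar is the median; detected features have medians of 356, 355 and 325.

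More features stood higher than lower in the late embryo. Of 538 features with at least 100 CPM in either group and a count in enough libraries, 66 were past the fold and higher in late (12.3%) and 20 were past it and lower (3.72%). Without late library 1 the numbers were 75 (13.8%) and 18 (3.3%) of 545, and 61 of the higher and 16 of the lower features were past the fold both ways. The median feature stood 0.20 higher in late on the log2 scale, with quartiles of -0.42 and 1.05, and 328 features (60.97%) lay within 2-fold. With TMM factors this median was -0.09, so its sign turns with the scaling. The excess of higher features depends on the scaling. With TMM factors, which moved every late over early value by -0.30 on the log2 scale, 48 features were higher and 33 lower, so that the higher ones made up 59.3% of those past the fold, against 76.7% with scaling to the total.

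With all late libraries, this number of features lay inside the range found between embryos of 1 stage. The series has 4 embryos of 8 cells in the same run of sample numbers as the gastrula embryos, with sums of 4992 to 127933 counts. They have 3 to 7 libraries each, so which cells were sampled also enters their differences. Their 6 pairs had 53 to 100 features past the fold (9.28% to 17.3%), and the 3 pairs without the shallowest embryo had 53 to 90 (9.28% to 15.9%). Counted in the same way, without the condition on libraries, late and early differed in 66 features upward (12.2% of 540) and 20 downward (3.7%), 86 in all. These 86 features, 15.9% of those compared, lie within the range of the 6 pairs. Their share is level with the highest of the 3 deeper pairs. Without late library 1, and with the condition on libraries kept, 75 were higher and 18 lower. Together these are more than in any of the 3 deeper pairs. The median size of the log2 difference, without regard to sign, was 0.73 between late and early and 0.66 to 1.03 in the 8-cell pairs.

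The digit libraries, from the same late embryo, gave a like count against the same early libraries, with 64 features higher (11.7% of 548) and 19 lower (3.47%). These comparisons share the early libraries, so their likeness is no second observation of the stage difference. Set against each other, the digit libraries and the late libraries without a digit differed past the fold in 4 features upward and 4 downward of 550 (0.727% each), and in 5 and 5 of 555 (0.901% each) without late library 1.

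**Figure D2:**
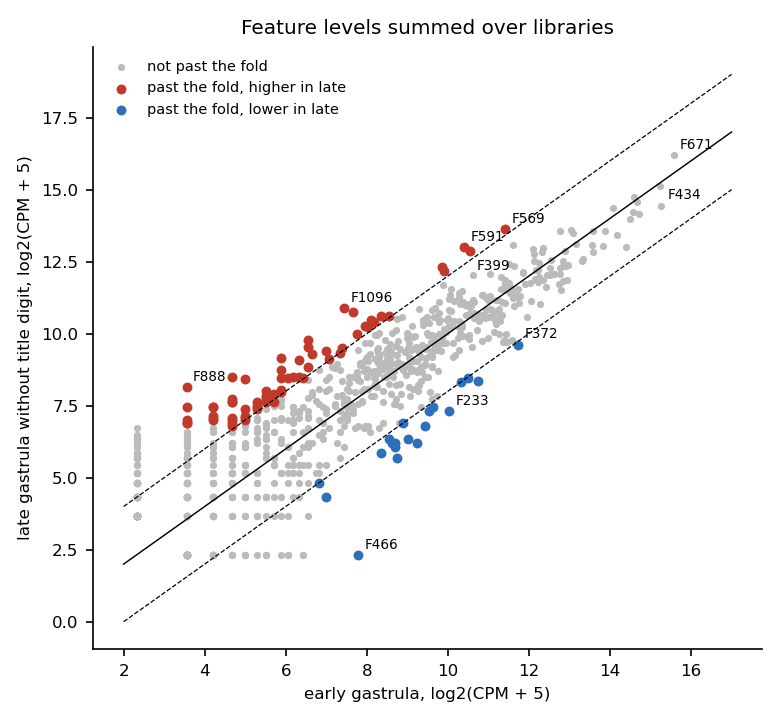
Late against early level of each feature, as log2(CPM + 5) of the sums over libraries, with the line of equal level and dashed lines at a 4-fold difference on this scale. Red points are the 66 features past the fold and higher in late, blue points the 20 lower in late; F569, F591 and F399 are the most abundant red points.

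The 10 features with the highest late over early ratios were nearly absent from most early libraries. F888 reached 275 CPM in late (interval 193 to 381), against 6.78 CPM in early (0.172 to 37.8), a ratio of 40.6 whose interval of 6.84 to 1649 is wide because it rests on 36 counts against 1. Late library 1 held 16 of the 36 late counts, and without that library the ratio was 32.8. F888 had a count in 12 of 19 late libraries, with a median of 193 and a maximum of 1233 CPM. In early it had a count in 1 of 33 libraries, at 229 CPM. The digit libraries had it in 15 of 21, up to 957 CPM. The groups overlap at 0, and the 1 early library with a count lies inside the late range.

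F987 was at 352 CPM in late, in 15 of 19 libraries with a median of 370 and a maximum of 1154 CPM, against 20.3 CPM in early, where 2 of 33 libraries held its 3 counts. Its ratio was 17.3 (5.56 to 86.97). Late library 1 held 17 of its 46 late counts, and without that library the ratio was 15.8. The digit libraries had it in 15 of 21, at 184.04 CPM from their sum. Digit library 20, at 1604 CPM, held 23 of its 46 digit counts.

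F1500, F1014, F161 and F1332 each had 1 count in all early libraries together, against 22, 16, 15 and 15 counts in late. Their late levels were 168.4, 122.4, 114.8 and 114.8 CPM and their ratios 24.8 (4.01 to 1025), 18.1 (2.80 to 757), 16.9 (2.60 to 713) and 16.9 (2.60 to 713). F1014 was in 6 of 19 late libraries, up to 982 CPM, and in 9 of the 21 digit libraries. F1500, F161 and F1332 were in 11, 9 and 9 late libraries and in 8, 14 and 15 digit libraries.

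F69 and F575 had 22 late counts each, against 2 in early, a ratio of 12.4 (3.05 to 108.9) for both. F69 was found in 6 late libraries and was highest in late library 11 with 1410 CPM, and both of its early counts lay in early library 26. F575 was found in 10 late libraries. It had stood at 129.3 CPM in the 20-cell embryo and at 258 to 1313 CPM in the 8-cell embryos. Its early level of 13.6 CPM was thus below that of these embryos and of late. F575 was not alone in this. Of the 66 features past the fold and higher in late, 45 stood higher in the 20-cell embryo than in early. The median level of the 66 was 114.9 CPM in the 20-cell embryo, 47.5 CPM in early and 267.8 CPM in late. F1187 had 337 CPM in late, in 15 of 19 libraries, against 27.1 CPM in early, in 4 of 33. Its ratio was 12.4 (4.52 to 47.6), and late library 5, with 1712 counts in all, reached 5257 CPM, far above the late median of 219 CPM.

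F1096 was the only one of these 10 present in every late library. It ran from 396 over a median of 987 to 4569 CPM in late and from 342 over 890 to 4251 CPM in the digit libraries, against 0 to 1811 CPM with a median of 0 in early, where 14 of 33 libraries held it. Its sums gave 1890 CPM in late, against 169.5 CPM in early, a log2 difference of 3.48. Late library 1 was at 3292 CPM and held much of the late sum, and without that library the difference was 2.89. The groups overlap, though 19 of the early libraries had no count. It had been at 78.99 CPM in the 20-cell embryo and at 23.4 to 200.3 CPM in the 8-cell embryos.

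The 10 features with the lowest late over early ratios were held by 13 to 31 of the 33 early libraries. F466 had no count in any of the 19 late libraries or in any of the 21 digit libraries. In early it had 32 counts over 15 of 33 libraries, 217 CPM (148.4 to 306), with a maximum of 1029 CPM. With the late sum set to a floor of 3 counts over the group, it was at least 9.45-fold lower in late, and at least 6.51-fold lower without late library 1. These bounds take the early sum as exact, and the counting interval of the ratio with all late libraries begins at 7.25-fold. In the 20-cell embryo it was at 14.4 CPM, from 2 counts in all.

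F944 was at 45.9 CPM in late, with 4 of 19 libraries holding a count and a maximum of 391 CPM, against 420 CPM in early, with 23 of 33 libraries and a median of 413 CPM. F1155 was at 68.9 CPM in late, with a maximum of 219 CPM, against 597 CPM in early, with a median of 453 and a maximum of 2067 CPM. Their ratios of early over late were 9.16 (3.98 to 25.9) and 8.66 (4.36 to 19.6). The digit libraries stood between for F1155, at 176.04 CPM.

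F233 was held by the most early libraries of these 10. It had 0 to 438 CPM in late with a median of 176.2, 0 to 478 CPM with a median of 58.97 in the digit libraries, and 0 to 2688 CPM with a median of 1131 in early, 31 of 33 libraries holding it. The early over late ratio was 6.82 (4.27 to 11.5) and the early median lay above every late and digit library. It had been at 2147 CPM in the 20-cell embryo and at 1907 to 3348 CPM in the 8-cell embryos.

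F1006, F40 and F58 likewise had higher levels before gastrulation. They were at 76.5, 61.2 and 107.1 CPM in late, against 509, 407 and 692 CPM in early, with 3267, 3282 and 1716 CPM in the 20-cell embryo. Their early over late ratios were 6.65 (3.42 to 14.4), 6.65 (3.17 to 16.1) and 6.46 (3.68 to 12.2). F1214 had the widest interval of those with a late count, with 2 counts in late and 18 in early and a ratio of 7.98 (1.91 to 70.9).

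F546 and F502 differed by -2.57 and -2.56 on the log2 scale in late against early, but less in the digit libraries of the same embryo. F546 was at 53.6 CPM in late and 156.03 CPM in the digit libraries, against 319 CPM in early. F502 was at 68.9 CPM in late and 160 CPM in the digit libraries, against 407 CPM in early. All 20 of these features stayed past 4-fold without late library 1, and 14 of the 20 were past it when the digit libraries took the place of the late ones.

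**Figure D3:**
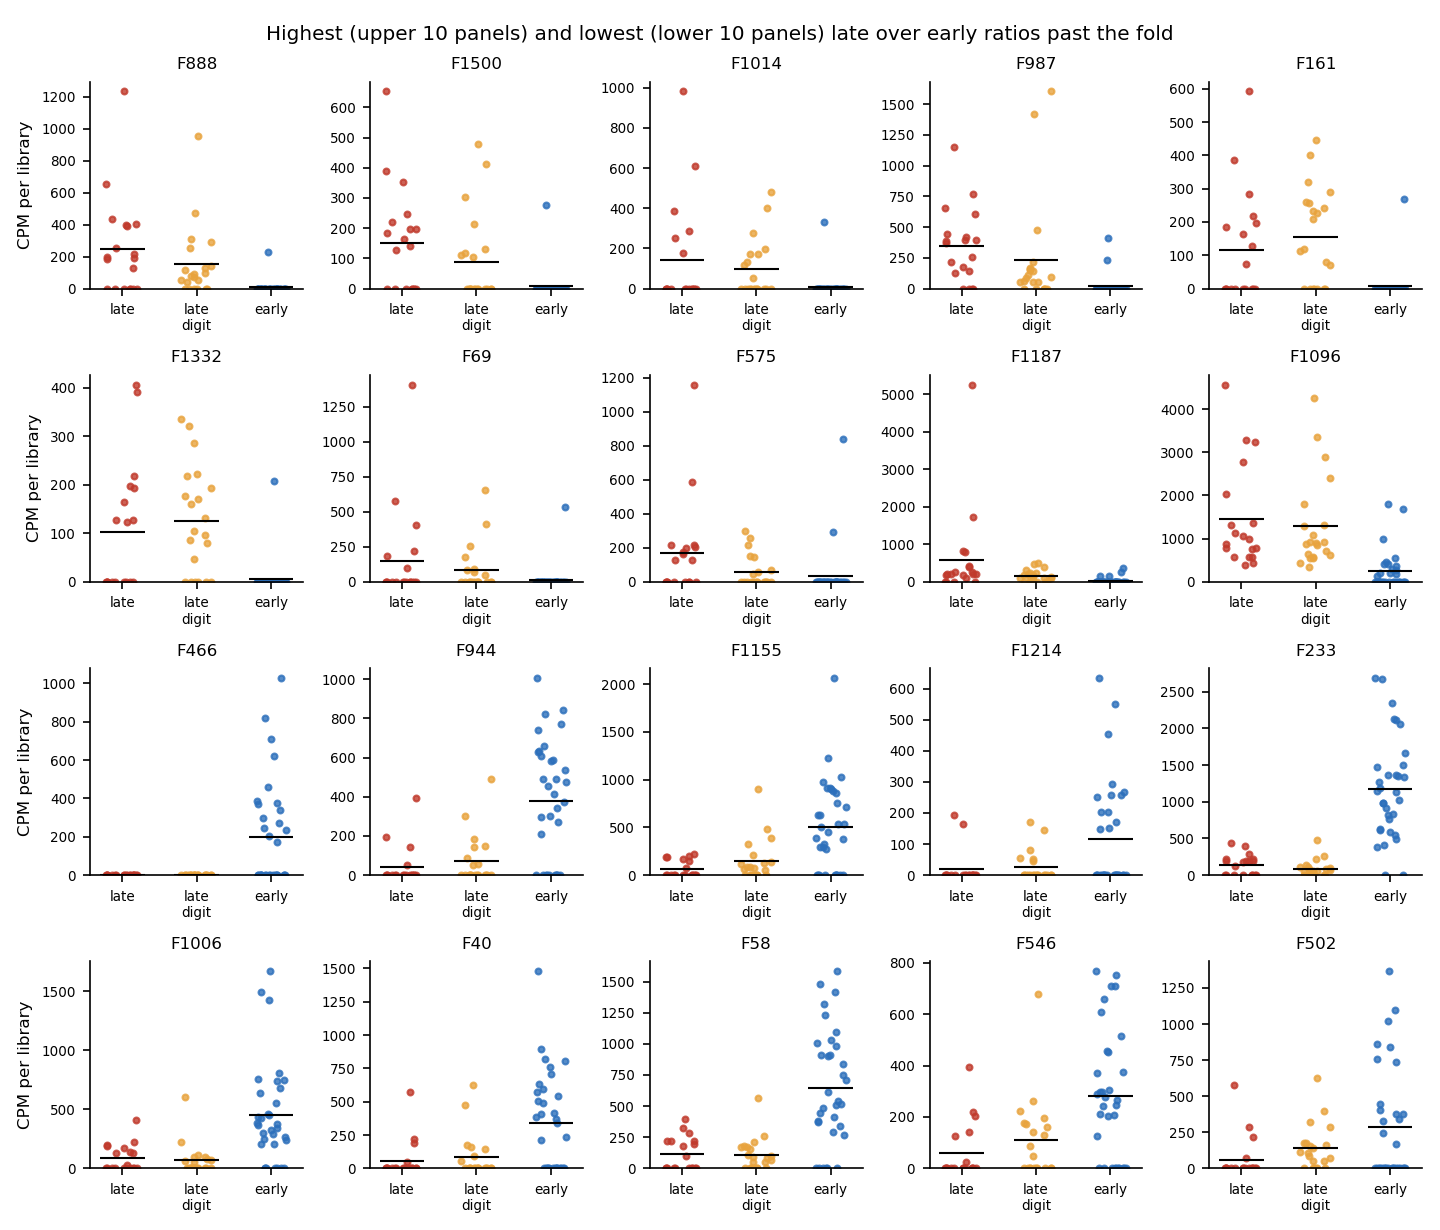
CPM of each library for the 10 features with the highest and the 10 with the lowest late over early ratios past the fold, with late libraries, digit libraries and early libraries from left to right in each panel; points are libraries and bars the mean of the library CPM. The first 10 are at or near 0 in most early libraries, and F466 is at 0 in all late and digit libraries.

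The features past the fold with the most counts were picked after their levels were seen. They had counts in both embryos, which a choice by counts favours, and some were uneven between cells. F569 had 5025 to 40236 CPM in late with a median of 8634, 2517 to 13591 CPM with a median of 7284 in the digit libraries, and 304 to 10210 CPM with a median of 2494 in early. Its sums gave 12665 CPM in late, against 2733 CPM in early, a log2 difference of 2.21, which was 1.92 with TMM factors and thus below 4-fold there. The digit libraries, at 6737 CPM, were also below 4-fold, with a log2 difference of 1.30 over early. The lowest late library had more than the early median, and the ranges overlap above it. It had been at 883 CPM in the 20-cell embryo and at 0 to 200.3 CPM in the 8-cell embryos.

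F591, F399, F753 and F1023 followed, with 8250, 7484, 5035 and 4569 CPM in late, against 1350, 1499, 916 and 949 CPM in early. Their log2 differences were 2.61, 2.32, 2.46 and 2.27, and the last was 1.97 with TMM factors. F1023 was the most even of the 4, with a median of 3942 CPM in late, 3707 CPM in the digit libraries and 611 CPM in early. F399 ran from 818 over a median of 4229 to 42108 CPM in late, against 0 to 9378 CPM with a median of 492 in early. F753 reached 24231 CPM in late library 2 and 22266 CPM in the next late library. It was at 20710 CPM in digit library 20 and at most 5704 CPM in early.

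Of the abundant features lower in late, F372 was found in every late library. It lay between 219 and 1174 CPM in late with a median of 653, between 85.5 and 1112 CPM in the digit libraries with a median of 717, and between 0 and 8610 CPM in early with a median of 3553. The sums differed by -2.12 on the log2 scale, and by -2.45 without late library 1. F460 was at 321 CPM in late, against 1709 CPM in early, where 32 of 33 libraries held it. F585 and F1331 passed the fold only with late library 1, their log2 differences being -2.05 and -2.03 with it, and -1.69 and -1.76 without it. The digit libraries differed from early by only -0.87 and -1.52. F585 had no count in the 20-cell, the sampled 12-cell and the 8-cell embryos, and early library 9 reached 15869 CPM, against an early median of 659 CPM.

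The most abundant features held a like share of both embryos, 18.6% of the counts in late and 18.0% in early for the top 5. F671 had the highest sum in both. By the median library it led in late, while in early F433 and F434, at 43916 and 41755 CPM, stood above it. It ran from 21129 over a median of 86490 to 141477 CPM in late and from 27273 over 103338 to 179715 CPM in the digit libraries, against 13488 to 93038 CPM with a median of 27302 in early. Its log2 difference was 0.64 by the sums and 1.30 by the mean of library CPM, and by the sums it was 1.04, a ratio of 2.06, without late library 1, the late library with the lowest level of it. F434 was lower, at 22223 CPM in late, against 39449 CPM in early, a log2 difference of -0.83, with a late range of 4869 to 42204 CPM and an early range of 29658 to 51429 CPM. F433, F634 and F689 differed by -0.11, 0.15 and -0.09 on the log2 scale, and F504 by -0.57.

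Late libraries were less alike than early ones. At 2000 counts and over 334 features, the Spearman correlation between pairs of libraries averaged 0.607 within late (17 libraries, 0.435 to 0.704), 0.560 between late and early and 0.688 within early (29 libraries, 0.572 to 0.776). It was 0.606 within late without library 1 and 0.609 within the digit libraries. Every one of the 17 late libraries was on average closer to the other late libraries than to the early ones, and every one of the 29 early libraries closer to the other early ones. Over the same features, 7 earlier embryos with at least 5 libraries of this depth had means of 0.609 to 0.767, so the late value lay just below that range and the early value inside it. These embryos had 5 to 12 such libraries. Differences between embryos in the cells sampled, RNA content, handling or sequencing cannot be told apart from stage.

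The spread of single features between cells was also larger in late. It was measured by the Fano factor, the variance over the mean at 2000 counts, which is near 1 when only counting varies. Over the features with a mean of at least 2 thinned counts in both groups, the median Fano factor was 1.60 in late, 1.58 in the digit libraries and 1.32 in early. It reached 2 for 51 features in late, 45 in the digit libraries and 28 in early. The late value was above the early one in 73.7% of these features and, without late library 1, in 70.5%. It was above it in 60 of 87 features whose thinned mean was lower in late (68.97%) and in 55 of 69 whose mean was higher (79.7%), so the larger spread was not limited to features with more counts. The 7 earlier embryos had medians of 1.17 to 2.22 over those of these features that also reached a mean of 2 there, at least 98 in each embryo and a different set for each.

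**Figure D4:**
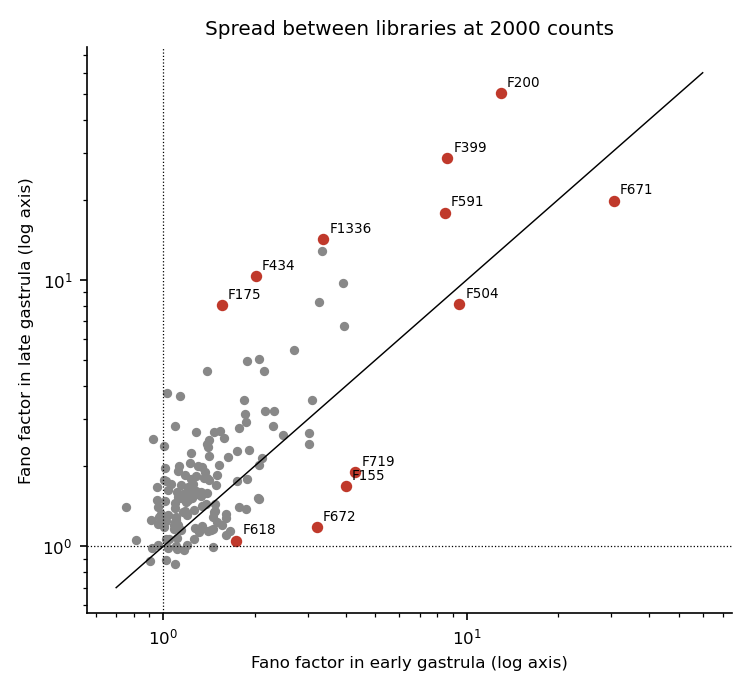
Fano factor of features with a mean of at least 2 thinned counts in late against early gastrula libraries, both on log axes, with the line of equal spread and dotted lines at 1. Red points are the named features, and 73.7% of all points lie above the line, and F671 lies below it.

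For some features the spread rested largely on 1 library. F200 had a Fano factor of 50.4 in late, 47.5 in the digit libraries and 13.0 in early. Late library 11 had 72.01 of its counts per 2000, against 4.76 in the next late library, and without that library the late Fano factor was 1.46. Early library 26 had 26.8, against 6.90 in the next, and without it the early value was 3.75. F1336 rested on 1 library in late only. It had 14.3 in late, 12.2 in the digit libraries and 3.37 in early, and late library 15 held 28.8 counts per 2000, against 3.55 in the next. Its late value without library 15 was 1.27. In the digit libraries 2 libraries held 21.6 and 18.7 counts per 2000, and in early the value was 3.00 without the highest library.

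Others varied over many cells. F399 kept a Fano factor of 15.5 in late without its highest library, from 28.8 with it, against 8.63 in early. F591 had 17.9 in late and 8.47 in early, with 10.6 in late and 3.82 in early once the highest library of each was left out. F434 had 10.4 in late and 2.02 in early, running from 9.74 to 84.4 counts per 2000 in late and only from 59.3 to 99.8 in early. F175 was alike, with 8.06 in late and 1.56 in early and ranges of 8.08 to 58.5 counts per 2000 in late and 23.1 to 46.2 in early.

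In 41 of the compared features the late Fano factor was not above the early one, and without late library 1 this held for 46. F671 had a Fano factor of 19.9 in late and 12.4 there without library 1, and 32.1 in the digit libraries, against 30.6 in early, so late and digit libraries lay on either side of early. F672, F719, F155 and F618 had 1.18, 1.90, 1.68 and 1.05 in late and 1.89, 1.17, 2.35 and 1.21 in the digit libraries, against 3.21, 4.30, 3.99 and 1.74 in early. F504 had 8.13 in late and 6.36 in the digit libraries, against 9.44 in early. The counts per 2000 of F672, F719, F155, F671 and F504 had Spearman correlations with the library's total counts of -0.06, 0.08, 0.37, 0.20 and 0.17 over the 17 late libraries. Over the 21 digit libraries these were 0.63, 0.31, 0.55, 0.19 and 0.49, and over the 29 early libraries 0.64, 0.63, 0.57, 0.66 and 0.57. The part of depth in this spread was not tested.

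Pairs of features that varied together over the early cells were followed into the late cells. The late libraries entered the choice only through the minimum mean asked of each feature in both groups, not through the correlations. Of 12090 pairs, 39 had a Spearman correlation of at least 0.7 over the 29 early libraries, and their median was 0.38 over the 17 late libraries and 0.38 over the 21 digit libraries. The 29 pairs at or below -0.7 in early had medians of -0.19 in late and -0.31 in the digit libraries. The medians of all pairs were 0.02 in late, 0.03 in the digit libraries and 0.01 in early. The points of each correlation share an embryo and differ in depth, and the highest and lowest values in early are extremes by choice, so a smaller value elsewhere is partly given by that choice.

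The lowest correlation in early was that of F434 and F498. It was -0.76 in late, -0.92 in the digit libraries and -0.86 in early. Cells with the fewest counts of F434 had the most of F498, which ran from 0.793 to 17.2 counts per 2000 in late, from 0 to 18.6 in the digit libraries and from 1.27 to 10.9 in early. With the library's total counts, the correlations of F434 and F498 were -0.13 and 0.17 in late and -0.23 and 0.16 in the digit libraries, but -0.57 and 0.50 in early. The part of depth in this pair was not tested.

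F10 varied with F634 at 0.74 in late, 0.87 in the digit libraries and 0.79 in early, and with F494 at 0.67 in late, 0.87 in the digit libraries and 0.80 in early. F155 and F504 gave 0.61 in late, 0.53 in the digit libraries and 0.79 in early. In the early libraries F10, F634 and F494 had correlations of -0.51, -0.69 and -0.57 with total counts. In the late ones these were -0.14, -0.20 and -0.23, and in the digit ones -0.71, -0.63 and -0.55.

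Other pairs were closer to 0 in late. F433 and F504 gave -0.06 in late, -0.41 in the digit libraries and -0.84 in early. F689 and F719 gave 0.07 in late, -0.27 in the digit libraries and -0.83 in early. The values of F433 and F719 were 0.09 in late, -0.25 in the digit libraries and -0.83 in early. Those of F504 and F671 were 0.23 in late, 0.46 in the digit libraries and 0.82 in early. F998 varied with F494 at 0.28 in late, 0.28 in the digit libraries and 0.80 in early, and with F10 at 0.20 in late, 0.16 in the digit libraries and 0.80 in early. Without late library 1 the late values were 0.12 for F504 and F671, 0.14 for F494 and F998 and 0.04 for F10 and F998. In early the features of these pairs had correlations with total counts, at -0.66 for F433, -0.68 for F689, 0.63 for F719, -0.48 for F998, 0.57 for F504 and 0.66 for F671. Their part in these correlations was not tested.

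Some late cells carried a set of features at levels well above those of the other cells. By a rule set after the data were seen, a feature was set apart in a library when it had at least 10 counts and 1500 CPM there and at least 3 times the CPM of the next library of its group. The late libraries had 23 such features in 7 libraries, the digit libraries 18 in 4 and the early libraries 4 in 2. As a share of the features that reached 10 counts and 1500 CPM in some library, these were 8.30% in late, 6.67% in the digit libraries and 1.81% in early. The groups differ in depth and in number of libraries, and both enter these counts. Late libraries 2, 11 and 13 held at least 3 of them, and each of these sets was followed in the other libraries.

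Late library 11 had 11 such features, F200, F256, F544, F836, F847, F1258, F1300, F1302, F1309, F1518 and F1526. Together they made up 9.12% of its counts (8.49% to 9.78%), against at most 0.818% in any other late library, a gap given by the choice. Among the digit libraries, library 33 held 9.30% (8.78% to 9.84%), against at most 1.77% in the others, and all 11 features were highest there. In early, library 26 held 2.87% (2.36% to 3.46%), the next library 1.14%, and 5 of the 11 were highest in library 26, which had 15.8% of its counts in the 6 left-out rows. In the 20-cell embryo the highest library held 3.87% and the next 2.09%.

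Single members show the step, which within late is given by the choice. F1518 was at 15505 CPM in late library 11, against 1546 CPM in the next late library, and at 6927 CPM in digit library 33, against 2632 CPM in the next. Its highest early library, library 18, had 4146 CPM. F1258 was at 12045 CPM in late library 11, against 1548 CPM in the next late library, at 13940 CPM in digit library 33 and at 5098 CPM in early library 26. F836 was at 2435 CPM in late library 11 and 4362 CPM in digit library 33, with a median of 0 in the other late, the digit and the early libraries. F69, F498, F569 and F591 of the comparisons above were also highest in late library 11. Among the digit libraries F498 and F591 were highest in library 33, but F69 in library 40 and F569 in library 32.

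Late library 2 had 4 such features, F13, F593, F986 and F1180. They made up 3.25% of its counts (2.78% to 3.77%), against at most 0.522% in any other late library, and 3.14% (2.87% to 3.44%) of digit library 20, against at most 0.501% in the others, with all 4 highest there. In early, library 13 held 0.794% (0.566% to 1.08%), the next library 0.168%, and 3 of the 4 were highest in library 13. F593 was at 13077 CPM in late library 2, 10181 CPM in digit library 20 and 1833 CPM in early library 13, with medians of 196 CPM in the other late, 55.9 CPM in the digit and 0 in the early libraries.

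Late library 13 had F36, F1261 and F1467, at 1.70% of its counts (1.37% to 2.09%). No digit or early library stood apart in this way: the highest digit library held 0.0905% and the highest early library 0.351%. F36 was at 6765 CPM in late library 13 and at no more than 302 CPM in any digit library, while 2 libraries of the 20-cell embryo had 25799 and 19324 CPM. In the 20-cell embryo the set made up 2.78% of the highest library, above its share of late library 13. That 20-cell library has a digit 3 in its title. The next held 1.93%, from only 4 counts, too few to rank it against late library 13. The 19324 CPM of F36 rests on the same 4 counts. Late libraries 11, 2 and 13 held 7804, 5200 and 5174 counts in all and digit libraries 33 and 20 held 11693 and 14341, so none of them was the deepest of its group.

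**Figure D5:**
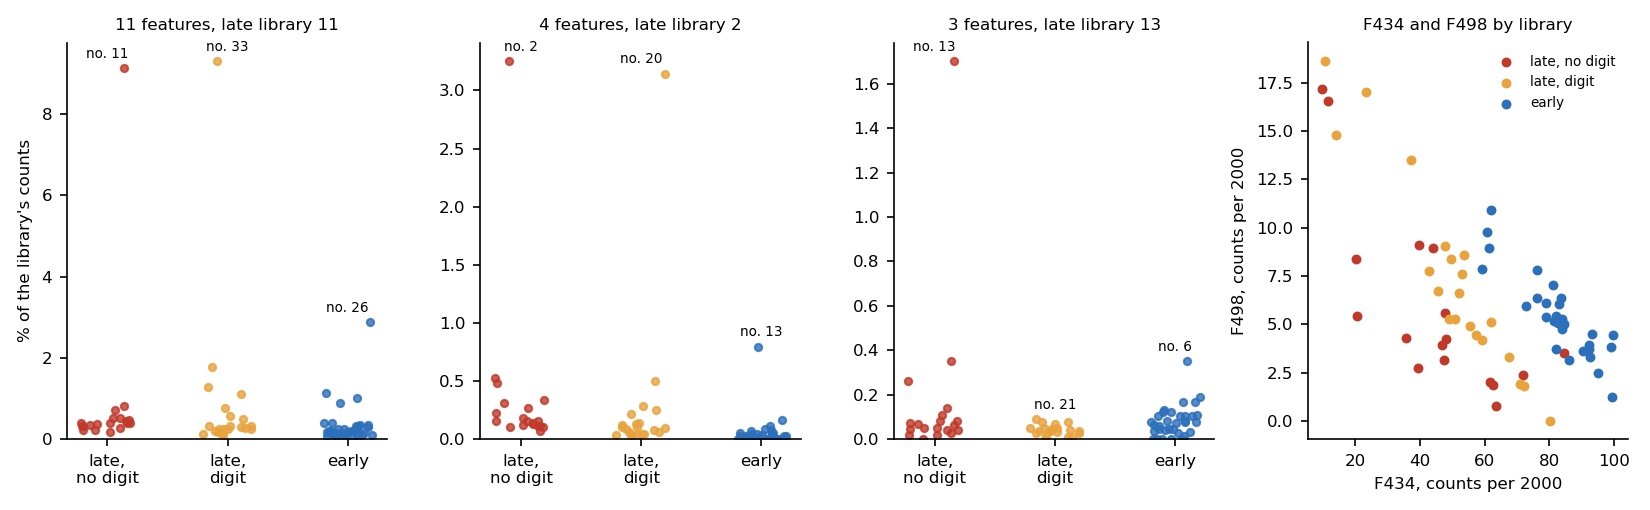
Percentage of each library's counts in the feature sets of late libraries 11, 2 and 13, with the highest library of each group numbered, and counts per 2000 of F498 against F434. Late library 11 and digit library 33 hold 9.12% and 9.30% in the first set, late library 2 and digit library 20 hold 3.25% and 3.14% in the second, and the third is highest in late library 13; F434 and F498 run in opposite directions in all 3 groups.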

How the data were processed

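Per the labels' protocols, blastomeres were separated by hand and amplified by CEL-Seq2. Per the submitters' processing notes, CASAVA 1.8, Bowtie2 2.1.0 and HTSeq 0.5.4p3 were used. The authors deposited raw counts per feature, and the sources used here do not say whether these are reads or molecules. The table used here holds 1572 complete rows, and its last row, with 130 fields, was left out. Rows 789, 955, 956, 1147, 1149 and 1177 were left out, so CPM relates to 1566 rows, not to library depth. Members and lists were chosen with earlier results of these data known.

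Sums per group were scaled to CPM, with exact Poisson intervals for levels and exact binomial ones for ratios. Spread was computed for hypergeometric thinning to 2000 counts, and similarity over 5 seeded thinnings (Python 3.11.15, numpy 2.4.6, scipy 1.17.1, pandas 2.3.3). Scaling factors came from edgeR 4.0.16 (TMM) and DESeq2 1.42.0 (median ratio), which were used for no test. Doublets were not called, since each library is labelled as a hand-separated blastomere. The labels do not say whether the title digit bears on the number of cells in a library. Named were the 10 highest and 10 lowest late over early ratios past the fold, the 5 highest Fano factors of each stage, the 4 largest Fano ratios each way, the 6 highest and 4 lowest correlations in early, and the 5 most abundant features of each stage. The computation of the fold count was checked on simulated counts. No libraries held identical counts. No result has replicate embryos, so its spread is between libraries of 1 embryo. For the digit libraries it is not known to be between single cells.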

Additional observations from a re-analysis of the deposited data

How the results depend on the processing

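With 1 embryo a stage, values here are descriptions, and a change of embryo could not be tried. The number of features higher in late was 32 with a minimum of 300 CPM, against 66 as reported, and the number lower was 33 with TMM factors, against 20. The mean Spearman correlation within late minus that within early was -0.0807 as reported, -0.128 at 1000 counts and -0.137 over features with a mean of at least 5, so its size rests on these choices while late was below early in each. The other 180 settings of the fold counts, detected features, similarity and spread kept their direction and stayed within a set tolerance. Most of them left out only 1 library, which could move little. The tolerance was wide, and took in 48 higher features with TMM factors. It also took in ratios of late over early median Fano factors of 1.15 at 1000 counts and 1.44 at 4000 counts. Leaving out each library in turn gave 62 to 75 features higher, 17 to 24 lower and a ratio of late over early median Fano factors of 1.13 to 1.26, against 1.22. The median log2 difference of all features shifted by -0.30 with TMM factors, to -0.09 and so to the other sign, by -0.11 with median-ratio factors and by 0.15 with the mean of library CPM. Of 160 settings tried for the 20 named features, 9 moved and none reversed, and with all 40 late libraries 17 of the 20 stayed past 4-fold. Leaving out late library 1 and following features set apart in 1 library were chosen after seeing the data. No paired analysis was possible because each stage has 1 embryo and the results come from no test. Features under 100 CPM in both groups are beyond this depth.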
